A study of Mus musculus with 75 samples.

Results

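The mitosis genes are 35 genes whose products carry out or control chromosome segregation and cell division, taken by symbol from the gene rows of both count tables of this series. Each table holds 41388 mouse gene rows, and all 35 genes were found in both. The members lie on 16 chromosomes. They fall into 8 roles: 6 cyclins and kinases of mitotic entry, 5 genes of the spindle assembly checkpoint, 2 that act with the anaphase ubiquitin ligase, 5 of the centromere and kinetochore, 4 of the chromosomal passenger complex, 5 spindle motors and assembly factors, 6 of the central spindle and cytokinesis, and 2 of chromosome structure. The rule lists symbols and applies no threshold to a value, and all 35 passed the filter on low counts in every fit.

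Total RNA of sorted blood cells from mice aged 8 weeks was sequenced in bulk. The 3 Kmt2c genotypes are wt, het (Kmt2c f/+, Vav-Cre) and ko (Kmt2c f/f, Vav-Cre); f stands for the floxed allele, and Vav drives Cre recombinase in the blood lineages. The first experiment has 48 libraries of untreated cells, 4 for each genotype in each of 4 populations, labelled HSC (haematopoietic stem cells), HPC, pGM and GMP, abbreviations that the labels do not spell out. The second has 27 libraries, all HSC or HPC of wt or ko mice. These mice were given either PBS or 0.5 µg of interleukin 1 (IL-1) per mouse, for 3 days, with 4 libraries in each HSC group except 3 in wt IL-1, and 3 in each HPC group. The wt entries name no Cre, so Cre and the Kmt2c deletion cannot be told apart in a comparison with wt, whereas het and ko share Cre. The labels do not say whether replicates are separate animals, and p values therefore measure the spread between libraries.

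A cell enters mitosis when cyclin B and Cdk1 become active, supported by the Polo and Aurora kinases. Chromosomes are condensed, attached through their kinetochores to spindle microtubules and held back by the spindle assembly checkpoint until every pair is attached. Cdc20 then activates the anaphase-promoting complex, cyclin B and securin are destroyed, the chromatids separate, and the central spindle and a contractile ring divide the cell. Most of these genes are transcribed in a wave in the G2 and M phases, so their transcripts follow the share of dividing cells, and haematopoietic stem cells are known for dividing rarely.

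Total counts per library ran from 13.3 M to 20.8 M in the first experiment and from 18.6 M to 42.8 M in the second. The lowest count of any member in any library was 39 in the first experiment, for Kif4, and 53 in the second, for Ccna2. Kmt2c itself stood at 50.9 ± 7.68 CPM (counts scaled to library size, mean ± SD, n = 4) in wt HSC, 35.6 ± 3.23 in het and 16.01 ± 2.11 in ko, and in the first experiment no ko library overlapped a wt library of its population. In the second experiment 1 library went against its label: the library labelled HSC wt IL1 replicate 1 held 13.99 CPM of Kmt2c, inside the range of the 8 ko HSC libraries (12.7 to 16.8 CPM with IL-1 and 13.3 to 25.6 with PBS), while the other two of its group held 41.6 and 42.6. The medians that rest on it are given with and without it. Of the marker lists chosen here, all 6 HSC markers were lower and all 3 multipotent progenitor markers higher in wt HPC than in wt HSC by the test used below. In the same comparison 4 of 6 B cell and 3 of 4 mast cell markers were higher with 0 lower. All 4 megakaryocyte markers tested were lower. Of 15110 genes tested 1892 were higher and 1548 lower.

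Before the values, the promoters of the members show what this set shares that its choice did not use. RefSeq promoter windows (GRCm38.p6, 250 bases before to 50 after the gene's start) were matched by symbol for 30 of the 35 members, in 32 windows, since Bub3 and Prc1 have 2 each. Ccna2, Aurkb, Incenp, Tpx2 and Kif20a were not matched. The letters TTTGAA, the core of the element known as the cell cycle genes homology region, were found on either strand in 78.1% of the member windows (23 of 30 genes), against 17.9% of all 32851 promoter windows and 12.4% of those of genes tested in the first experiment. CCAAT, the letters bound by the factor NF-Y, were found in 78.1% of member windows and 37.4% of all. Both sets of letters stood together in 68.8% of member windows and 6.95% of all. TATAAA, the letters of a TATA box, were in 3.12% of member windows and 13.6% of all.

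The TTTGAA matches lay close to the gene start: 23 of the 30 matches were within 50 bases of it, and CCAAT matches lay farther upstream, at a median of 72.5 bases before it. The sites of 10 members whose values follow are given, 30 bases each on the strand of the gene, with the match in capitals (TTTGAA, or TTCAAA where it reads on the opposite strand).
Cdk1 (chr10:69352910-69352939, minus strand, 15 bases before the start): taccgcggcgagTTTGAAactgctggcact
Ccnb2 (chr9:70421533-70421562, minus strand, 4 bases after the start): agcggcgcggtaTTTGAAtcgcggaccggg
Plk1 (chr7:122159453-122159482, plus strand, 30 bases after the start): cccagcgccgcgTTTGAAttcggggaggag
Aurka (chr2:172370521-172370550, minus strand, 32 bases after the start): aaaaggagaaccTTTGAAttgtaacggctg
Cdc20 (chr4:118437344-118437373, minus strand, 18 bases before the start): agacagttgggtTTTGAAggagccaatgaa
Cenpa (chr5:30666890-30666919, plus strand, 16 bases after the start): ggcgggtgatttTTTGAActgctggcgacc
Kif11 (chr19:37376351-37376380, plus strand, 19 bases before the start): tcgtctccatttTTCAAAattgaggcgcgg
Kif23 (chr9:61946780-61946809, minus strand, 2 bases after the start): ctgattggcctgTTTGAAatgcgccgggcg
Top2a (chr11:99024195-99024224, minus strand, 23 bases before the start): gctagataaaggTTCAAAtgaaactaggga
Bub3 (chr7:131560315-131560344, plus strand, 43 bases before the start in 1 of its 2 windows): gagccgttggcgTTCAAAatcagccaatga
The Cdk1 promoter shows how the letters repeat. Its 250 bases before the start (chr10:69352913-69353162, minus strand), with TTTGAA and CCAAT matches on either strand in capitals, hold 2 of the first and 3 of the second, the latter all reading on the opposite strand as ATTGG.
Cdk1 promoter: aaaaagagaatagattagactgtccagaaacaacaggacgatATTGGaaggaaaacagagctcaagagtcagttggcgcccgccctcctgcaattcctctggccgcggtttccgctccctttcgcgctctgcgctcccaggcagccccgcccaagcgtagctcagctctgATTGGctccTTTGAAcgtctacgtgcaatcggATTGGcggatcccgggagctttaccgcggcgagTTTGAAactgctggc
The 7 matched members without TTTGAA in the window were Birc5, Bub1, Ccnb1, Cenpe, Mad2l1, Nuf2 and Nusap1. A match is a description of letters, and no binding was measured.

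Wild-type HPC held far more transcript of nearly every mitosis gene than wild-type HSC. In the first experiment 34 of the 35 members were higher in HPC at an adjusted p under 0.05 (edgeR quasi-likelihood test, Benjamini-Hochberg adjustment over 15110 genes, n = 4 libraries against 4), where 12.5% of all genes tested were higher. The median log2 change of the members was 1.45, against -0.02 over all genes tested. The largest changes were those of Kif11 (3.3-fold), Aurka (3.21-fold) and Bub1 (3.21-fold), and the smallest called was that of Bub3 (1.47-fold). In bulk libraries a smaller share of cells in mitosis and less of each transcript per cell cannot be told apart.

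Expressed as the mean log2 CPM of the 35 members in a library, HSC wt stood at 4.61 ± 0.10 (mean ± SD, n = 4), HPC wt at 5.97 ± 0.14, pGM wt at 6.29 ± 0.14 and GMP wt at 6.50 ± 0.13. The HSC libraries lay at 4.49 to 4.73 and the HPC libraries at 5.77 to 6.09, with a wide gap between them. The pGM libraries began just above the highest HPC library, at 6.10 to 6.44, and overlapped the GMP libraries, at 6.38 to 6.65.

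**Figure D1:**
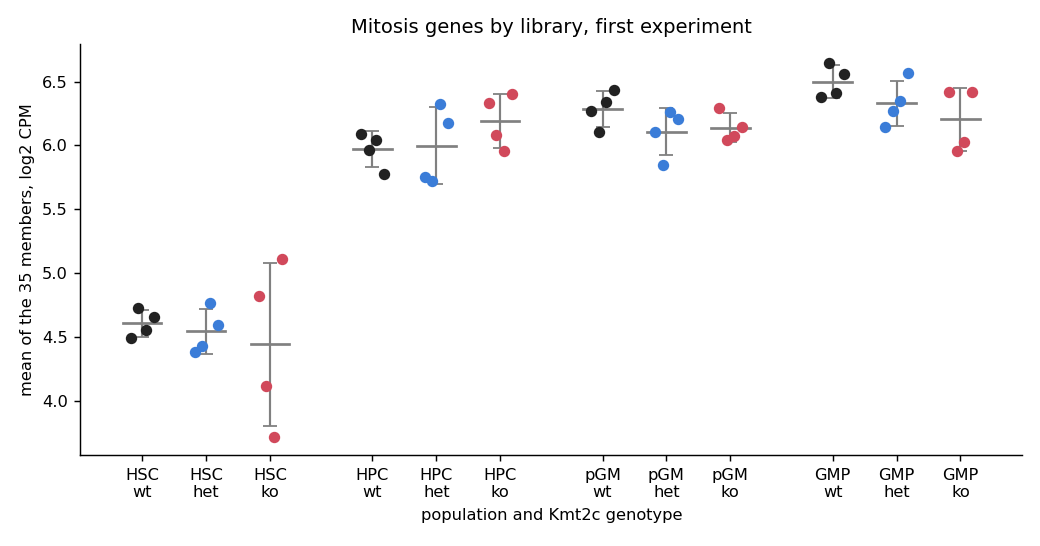
Mean log2 CPM of the 35 mitosis genes (y axis) in each of the 48 libraries of the first experiment, by population and Kmt2c genotype (x axis); points are libraries, the grey line is the mean of 4 and the bars are 1 SD. The HSC libraries lie lowest, between 3.72 and 5.11, below all libraries of the other populations, and the HSC ko libraries are the most spread.

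Among the cyclins and kinases of mitotic entry, all 6 were higher in HPC. Cdk1, the kinase whose activation starts mitosis, stood at 78.5, 80.5, 65.3 and 78.1 CPM in the 4 wt HSC libraries, 255, 234, 149 and 154 in HPC, 183, 181, 195 and 231 in pGM and 275, 267, 278 and 229 in GMP. Its HSC values lay below those of every other population, and the change from HSC to HPC was 2.62-fold (log2 1.39 ± 0.18, adjusted p = 7.96e-08 by edgeR; ± is SE for log2 changes). Ccnb1, the cyclin B partner of Cdk1, stood at 21.4, 25.5, 20.5 and 25.6 CPM in HSC, 77.99, 81.1, 57.9 and 58.4 in HPC, 86.6, 73.9, 82.8 and 79.9 in pGM and 91.9, 115, 116 and 102 in GMP. Plk1, the Polo kinase of centrosome maturation and mitotic exit, stood at 29.8, 34.5, 29.2 and 37.5 CPM in HSC, 73.1, 82.6, 107 and 109.9 in HPC, 139.5, 107, 107 and 92.5 in pGM and 163, 220.2, 175 and 209 in GMP, so that every GMP library lay above every other. Aurka, the centrosomal Aurora kinase, held 27.4, 31.97, 30.9 and 31.5 CPM in HSC, 104, 110.3, 94.7 and 81.5 in HPC, 97.2, 95.1, 93.3 and 121 in pGM and 152, 157, 162 and 144 in GMP. Ccnb2, the second cyclin B, rose 2.88-fold from HSC to HPC and Ccna2, the cyclin that acts from S phase to early mitosis, 2.58-fold.

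The 5 genes of the spindle assembly checkpoint, which delays anaphase until kinetochores are attached, were all higher in HPC, with very different sizes. Bub1, a kinetochore kinase of the checkpoint, stood at 8.63, 13.4, 13.5 and 11.5 CPM in HSC, 37.3, 37.4, 43.1 and 32.7 in HPC, 57.3, 37.9, 49.8 and 62.6 in pGM and 50.03, 78.6, 70.7 and 83.4 in GMP. Bub3, its WD-repeat partner, stood at 289, 316, 342 and 272 CPM in HSC, 479, 526, 396 and 393 in HPC, 396, 368, 413 and 473 in pGM and 480.2, 534, 497 and 489.8 in GMP. Bub3 was thus the flattest member, with a log2 change from HSC to HPC of 0.56 ± 0.13, adjusted p = 0.001, and its binding partner Bub1 was among the steepest (1.68 ± 0.29, adjusted p = 2.45e-05). Bub1b, Mad2l1 and Ttk, which make up the inhibitor of Cdc20 and its upstream kinase, rose 2.55-fold, 2.38-fold and 2.62-fold.

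Both genes that act with the anaphase ubiquitin ligase were higher in HPC. Cdc20, the activator of that ligase, stood at 23.2, 15.7, 18.2 and 17.6 CPM in HSC, 50.1, 39.1, 36.5 and 41 in HPC, 45.8, 46.9, 48.1 and 36.02 in pGM and 70.4, 59.1, 73.7 and 59.99 in GMP. Its partner Ube2c, the enzyme that starts the ubiquitin chains, rose 2.96-fold from HSC to HPC. Of the 17 subunits and close regulators of the ligase in a wider list, 5 were higher in HPC and 0 lower, with a median log2 change of 0.27. Of all genes tested 12.5% were higher.

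All 5 centromere and kinetochore members were higher in HPC. Cenpa, the histone H3 variant that marks the centromere, held 33.1, 21.01, 29.9 and 25.5 CPM in HSC, 92.99, 75.9, 63.9 and 65.5 in HPC, 97.5, 85.3, 99.3 and 78.3 in pGM and 121, 104, 133 and 94.5 in GMP. Ndc80, the outer kinetochore protein that binds microtubules, held 14.99, 17.1, 13.4 and 17.7 CPM in HSC, 41.1, 45.3, 47.03 and 39.5 in HPC, 41.5, 37.8, 48.1 and 50.2 in pGM and 31.7, 40.1, 40.7 and 39.5 in GMP, without a further step after HPC. Its partner Nuf2 rose 2.69-fold from HSC to HPC, the kinesin Cenpe 1.98-fold and the large kinetochore protein Cenpf 2.95-fold.

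The chromosomal passenger complex, in which Aurkb is the kinase and Incenp, Birc5 and Cdca8 target and activate it, was higher in HPC in all 4 members. Aurkb stood at 45.2, 59.3, 51.3 and 47.5 CPM in HSC, 142, 163, 119 and 116 in HPC, 166, 156, 143 and 155 in pGM and 275, 335, 265 and 277 in GMP. Birc5, also called survivin, stood at 37.8, 32.6, 32.2 and 37.1 CPM in HSC, 128, 117, 81.9 and 84.2 in HPC, 117, 98.1, 111 and 132 in pGM and 196, 180.0, 192 and 162 in GMP. Incenp, the scaffold, was lower and less even, with 8.73, 16.4, 5.83 and 11.5 CPM in HSC, 21.4, 16.2, 24.2 and 17.4 in HPC, 30.7, 28.7, 31.7 and 30.2 in pGM and 27.1, 32.9, 31.6 and 29.4 in GMP. For Aurkb and Birc5 every GMP library lay above every pGM library, while for Incenp the pGM and GMP libraries overlapped.

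All 5 spindle motors and assembly factors were higher in HPC, and this role held the member with the largest change. Kif11, the kinesin that pushes spindle poles apart, stood at 12.4, 13.8, 11.4 and 13.8 CPM in HSC, 43.3, 39.8, 48.8 and 37.2 in HPC, 58.7, 42.4, 50.2 and 57.97 in pGM and 40.4, 43.5, 31.4 and 52.9 in GMP, a change from HSC to HPC of 1.72 ± 0.18, adjusted p = 5.03e-10. The microtubule-depolymerising kinesin Kif2c rose 2.83-fold, Tpx2, which activates Aurka, 2.28-fold, the spindle protein Hmmr 2.97-fold and Nusap1, which bundles spindle microtubules, 3.14-fold.

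In the central spindle and cytokinesis role 5 of 6 were higher in HPC. Kif4, a chromokinesin that also shapes the central spindle, held 3.15, 4.68, 4.13 and 3.92 CPM in HSC, 11.5, 10.98, 15.5 and 11.1 in HPC, 16.7, 18.4, 18.7 and 27.1 in pGM and 11.8, 19.2, 12.5 and 21.1 in GMP. Kif23, the kinesin of the centralspindlin complex, held 27.99, 38.1, 36.3 and 35.05 CPM in HSC, 71.97, 68.9, 65.6 and 52.4 in HPC, 79.3, 63.9, 75.2 and 84.4 in pGM and 60.7, 89.3, 72.2 and 95.7 in GMP. Prc1, which bundles the microtubules of the midzone, held 46.2, 66.4, 46.9 and 52.8 CPM in HSC, 118, 123, 124 and 101 in HPC, 114, 106, 123 and 137 in pGM and 105, 149, 118 and 127 in GMP. Racgap1, the GTPase regulator that pairs with Kif23, was the 1 member not called: its HSC libraries held 35.1, 34.4, 27.9 and 23.2 CPM and its HPC libraries 39.8, 37.7, 49.6 and 59.9. The 2 Racgap1 groups did not overlap, but the fit shares 1 estimate of the spread over all 48 libraries and gave 0.63 ± 0.29, adjusted p = 0.11. The mitotic kinesin Kif20a rose 2.86-fold and Anln, a scaffold of the contractile ring, 2.42-fold.

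Of the chromosome structure genes, Top2a, the topoisomerase that untangles sister chromatids, held 130.2, 146, 143 and 166 CPM in HSC, 443, 442, 521 and 409.9 in HPC, 596, 507, 625 and 744 in pGM and 356, 499, 379.6 and 599 in GMP. Mki67, which encodes the Ki-67 protein of the chromosome surface and is a common proliferation marker, held 11.7, 14.4, 11.3 and 7.03 CPM in HSC, 29.3, 13.6, 43.03 and 15.5 in HPC, 35.2, 29.5, 50.2 and 68.95 in pGM and 63.1, 81.6, 32.1 and 61.2 in GMP. Its HSC and HPC libraries overlapped, and its change of 1.19 ± 0.45, adjusted p = 0.0475 had the largest error of the 35.

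**Figure D2:**
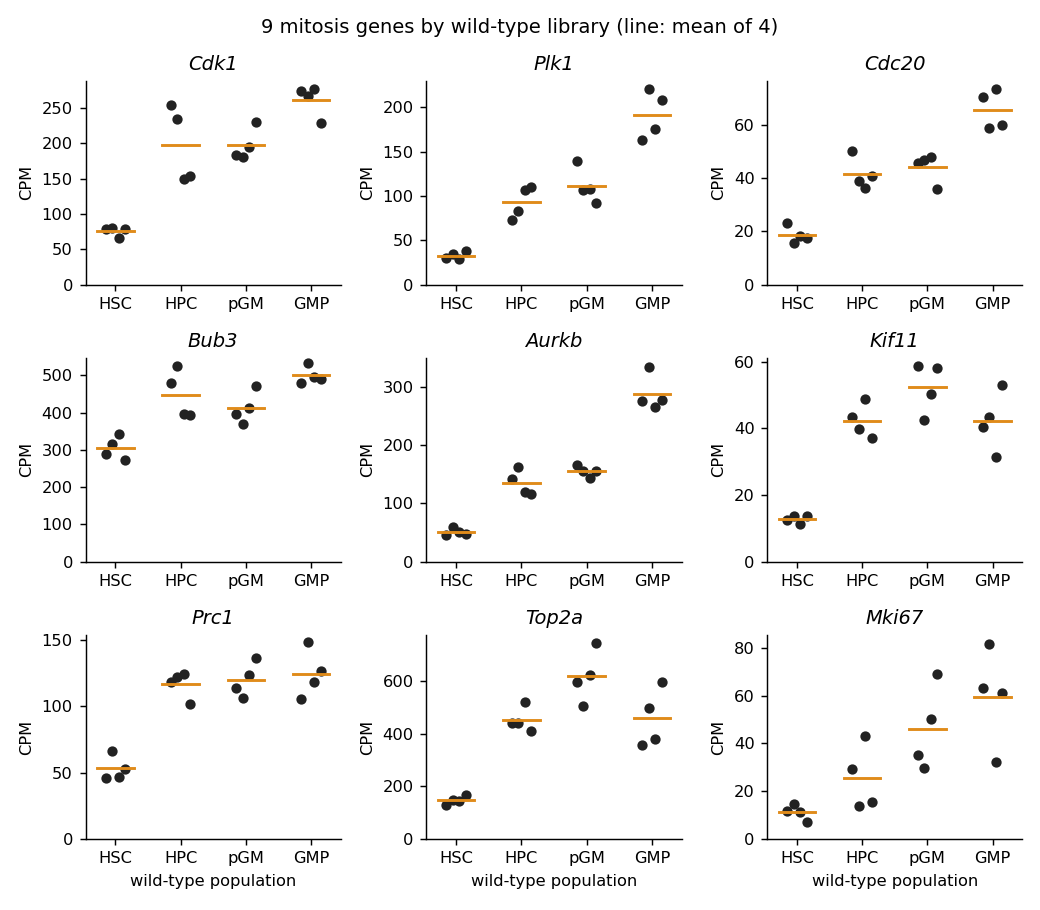
CPM (y axis, from 0) of 9 mitosis genes in each wild-type library of the first experiment, by population (x axis); points are libraries and the orange line is the mean of 4. In each panel the HSC mean is lowest, and for Cdk1 the highest HSC library, at 80.5 CPM, lies below the lowest HPC library, at 149 CPM.

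For 32 of the 35 members every HPC library lay above every HSC library, where 14.3% of all genes tested were separated in that direction. Leaving out each of the 8 libraries in turn gave 32 to 34 called members. Neutrophil markers were uneven: the summed level of the 6 markers, all of them detected, ran from 17.2 to 2543 CPM over the HSC wt libraries and from 19.5 to 674 over the HPC wt libraries, highest in replicate 4 of each. Replicate 4 also held the highest sum in each other group of the first experiment except GMP wt. Without HSC wt replicate 4 the count of called members was 32, and without HPC wt replicate 4 it was 34. The 8 erythroid markers, all detected, summed to 54.6 to 487 CPM in HSC wt and 41.98 to 160.3 CPM in HPC wt.

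Other genes of cell division, from lists chosen beside the members, moved the same way to different degrees. In this comparison 12.5% of all genes tested were higher in HPC. Of 34 further centromere and kinetochore genes, 29 were higher in HPC and 1 was lower, with a median log2 change of 1.04. Of 29 further spindle and cytokinesis genes, 26 were higher and 0 lower (median 1.19), and of 29 replication genes 25 were higher and 0 lower (median 0.92). Among 20 regulators of mitotic entry 12 were higher and 0 lower (median 0.66), and among 23 condensin and cohesin genes 12 were higher and 0 lower (median 0.62). The members' median of 1.45 was above that of each of these lists. Members and lists were chosen with earlier results of these data known, so this order is only a description.

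The second experiment sampled the same step in mice given PBS. There 31 of 35 members were higher in wt HPC than in wt HSC (edgeR, adjusted p under 0.05, n = 3 against 4), against 6.46% of all genes tested, with a median log2 change of 1.39 and -0.02 over all genes. The members not called were Bub3 (0.00 ± 0.21, adjusted p = 1.00), Prc1 (0.98 ± 0.37, adjusted p = 0.0835), Cenpa (0.88 ± 0.36, adjusted p = 0.11) and Kif2c (1.25 ± 0.43, adjusted p = 0.0505). The largest changes were those of Ccna2 (3.78-fold), Bub1 (3.6-fold) and Top2a (3.58-fold), and the smallest called were those of Cdc20 (1.7-fold), Racgap1 (1.9-fold) and Mad2l1 (2.01-fold). In all, 30 members were called in both experiments, and Racgap1, not called in the first, was called here. The libraries of 33 members did not overlap, against 11.3% of all genes. Across the 35 members the log2 changes of the 2 experiments had a Pearson r of 0.65 and a Spearman rho of 0.57, given as a description over genes that rise together and share libraries.

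With PBS Bub3 stood at 243, 214, 300.1 and 201 CPM in HSC and 299, 205 and 216 in HPC, with overlap. Ccna2 stood at 10.8, 8.72, 6.03 and 1.92 CPM in HSC and 16.3, 36.8 and 24.8 in HPC. The count of called members in the second experiment was 18 without the filter on low counts. It also leaned on single libraries, and fell to 12 without HPC wt PBS replicate 1, to 17 without HPC wt PBS replicate 2 and to 15 without HSC wt PBS replicate 4. HSC wt PBS replicate 4 had the lowest mean of the members of any library, 3.57, while replicates 1 to 3 stood at 4.67, 4.50 and 5.13.

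**Figure D3:**
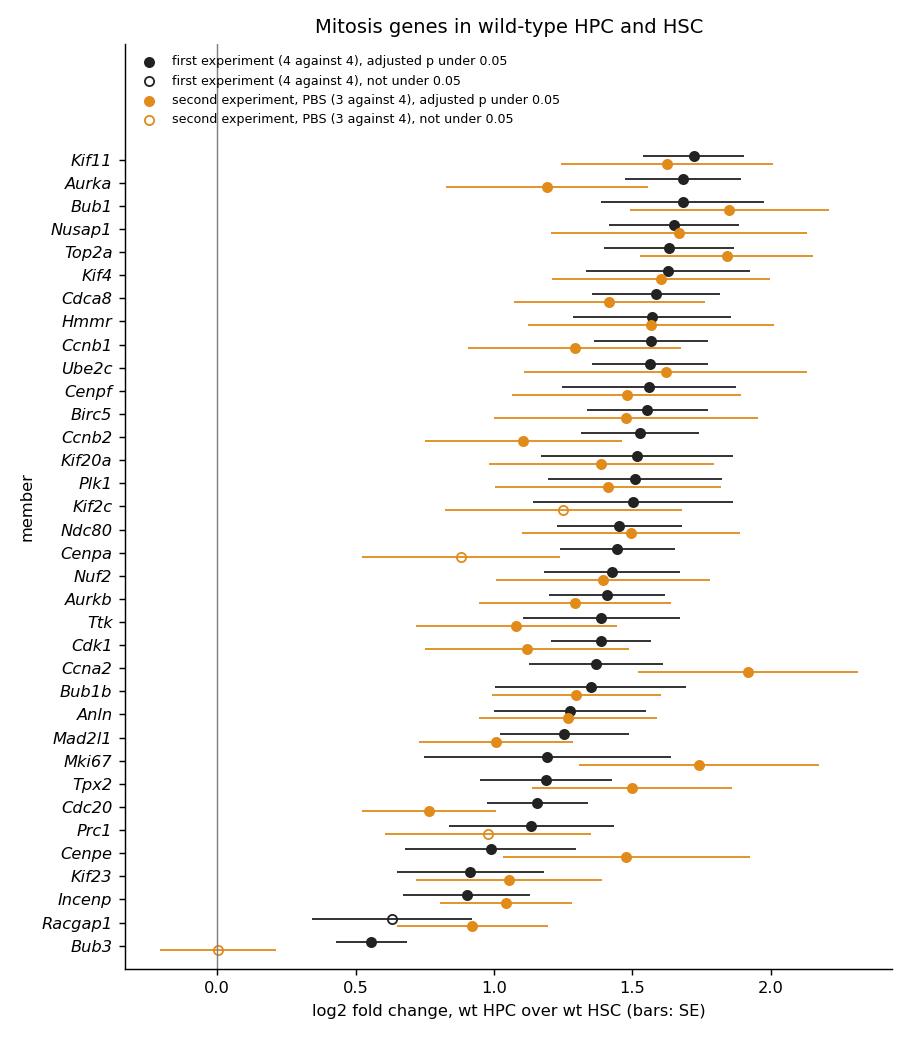
Log2 fold change of each mitosis gene in wild-type HPC over wild-type HSC (x axis, bars are SE; 1 member per row on the y axis), in the first experiment (black) and, with PBS, in the second (orange); filled points have an adjusted p under 0.05 by edgeR. Every point of the first experiment lies right of 0, from 1.47-fold for Bub3 to 3.3-fold for Kif11, and only Bub3 lies at 0 in the second.

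Later steps changed the mitosis genes far less. From wt HPC to wt pGM 0 of 35 members were called by edgeR, where 12% of all genes were called in either direction. At an unadjusted p under 0.05 there were 7, DESeq2 called 0, and the members' median log2 change was 0.25 (-0.00 over all genes). Incenp (0.61 ± 0.23, adjusted p = 0.0694) and Cenpe (0.79 ± 0.30, adjusted p = 0.0803) had the smallest p. With only the libraries of these 2 groups in the fit, 10 members were higher in pGM: Bub1, Bub1b, Tpx2, Kif4, Cenpe, Kif2c, Top2a, Racgap1, Kif20a and Incenp. The share of all genes called in that smaller fit is not given, so this count has no background beside it.

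From wt pGM to wt GMP, 6 members were higher and 0 lower (edgeR, adjusted p under 0.05), against 11% of all genes higher and 18% lower. Of the 6, 3 belong to the passenger complex: Aurkb (1.86-fold, 0.89 ± 0.21, adjusted p = 7.39e-04), Birc5 (1.59-fold, 0.67 ± 0.21, adjusted p = 0.0131) and Cdca8 (1.52-fold, 0.60 ± 0.23, adjusted p = 0.0394). The others were both genes that act with the ubiquitin ligase, Ube2c (1.52-fold, 0.61 ± 0.20, adjusted p = 0.0212) and Cdc20 (1.49-fold, 0.57 ± 0.18, adjusted p = 0.0119), and the kinase Aurka (1.51-fold, 0.60 ± 0.20, adjusted p = 0.0218). Members did not all point upward: 25 of 35 log2 changes were positive, and the 3 lowest, Cenpf (-0.47 ± 0.31, adjusted p = 0.26), Top2a (-0.43 ± 0.23, adjusted p = 0.16) and Kif4 (-0.33 ± 0.28, adjusted p = 0.42), did not pass. The median was 0.28, and -0.11 over all genes. The count fell to 3 when GMP wt replicate 3 or pGM wt replicate 2 was left out. With only these 2 groups in the fit 14 members were higher and 2, Top2a and Nusap1, lower, again without the share of all genes called in that fit.

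Over the whole span from wt HSC to wt GMP, all 35 members were higher (edgeR, adjusted p under 0.05, 27.5% of all genes higher), by a median log2 change of 1.96, and no member's libraries overlapped (26.4% of all genes were separated in that direction). The 3 largest changes were those of Bub1 (6.03-fold), Kif2c (5.96-fold) and Plk1 (5.86-fold), and the 3 smallest were those of Bub3 (1.64-fold), Kif23 (2.31-fold) and Prc1 (2.35-fold). This comparison shares its HSC libraries with the comparison of HPC with HSC. The 7 granulocyte-monocyte markers summed to 136125 to 168543 CPM in GMP wt, against 947 to 2237 CPM in HSC wt.

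Set per length of exon, the members spanned a wide range within a population. The length is that of all annotated exons of a gene merged, not of 1 transcript. It is 7006 bases for Bub3 and 1531 for Ccnb2, and the order below depends on it. As CPM per kilobase of exon (GENCODE M21 lengths), Bub3 was highest in wt HSC at 43.5, followed by Ccnb2 at 31.3, and Cenpf was lowest at 0.455. In HPC the order at the top turned, with Ccnb2 at 90.2 and Bub3 at 64.05, and in GMP Ccnb2 stood at 139, Aurkb at 97.8 and Cenpf at 1.13.

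The relative levels of the members were not the same from library to library, which bears on single genes below. The ratio of Cdk1 to Racgap1, a pair chosen after its values were seen, ran from 1.46 to 7.15 in the first experiment and from 0.695 to 1.62 in the second, leaving out 1 library there, HSC ko PBS replicate 4, at 6.78. In that library 32 members stood above the mean of the other ko PBS libraries, among them Cdk1 at 129.7 CPM against 42.8, 32.5 and 29.5, while Racgap1 was lower, at 19.1 CPM against 37.98, 46.5 and 42.4. A pair of GMP libraries split the members in another way. GMP het replicate 1 and GMP ko replicate 2 held 386 and 334 CPM of Mad2l1, above the 139 to 220.0 of the other 10 GMP libraries, and 50.5 and 65.3 CPM of Plk1, below the 109.7 to 220.2 of the others.

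No mitosis gene passed the threshold between Kmt2c genotypes in the first experiment. In each of the 12 comparisons between genotypes within a population, edgeR called 0 of 35 members. Of all genes tested, the ko to wt comparison called 1.78% in HSC, 1.1% in HPC, 1.94% in pGM and 0.555% in GMP. The ko to het comparison called 0.326%, 0.196%, 0.564% and 0.0166% in the same order, and the het to wt comparison 0.00724%, 0.00753%, 0.0155% and 0.00828%. With so few genes called in all, 0 of 35 is near the background. At an unadjusted p under 0.05 edgeR had between 0 and 10 members in these 12 comparisons, and DESeq2 called 0 to 2. The percentages above are those of edgeR, and none is given for DESeq2.

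In HSC the ko libraries were the least even of the first experiment. Their means over the 35 members were 4.82, 4.12, 3.72 and 5.11, and those of wt were 4.49, 4.73, 4.55 and 4.66. Ko replicates 1 and 4 thus lay above every wt library and replicates 2 and 3 below, and the median log2 change of -0.05 (0.01 over all genes, 14 of 35 positive) averages over that split. Ko replicates 1 and 4 also stood above ko replicates 2 and 3 in HPC, pGM and GMP, by the library means given below. The labels do not say whether a replicate number marks the same animal across populations. Replicates 1 and 4 held 0.4 and 0.403 CPM of 4 summed Y-linked transcripts, and replicates 2 and 3 held 183 and 255, so that Y-linked expression moved with the level of the members inside the group. The wt libraries held 58.99 to 152 CPM of it. Y-linked levels of the other populations are not given here. With Y-linked expression as a covariate in the edgeR fit, Kif23 (log2 -1.43, adjusted p = 0.00188) and Top2a (log2 -0.74, adjusted p = 0.0495) were lower in ko. These calls rest on a covariate that moved with the members' own level in ko, and the share of all genes called in that fit is not given. Without the covariate the smallest p belonged to Kif23, with 30.7, 11.9, 10.1 and 27.6 CPM in ko and 27.99, 38.1, 36.3 and 35.05 in wt (-0.78 ± 0.29, adjusted p = 0.30), and to Ndc80 (-0.47 ± 0.26, adjusted p = 0.57). Kif23 also had the smallest p in het against the same wt libraries (-0.60 ± 0.29, adjusted p = 0.81), before Kif4 (-0.40 ± 0.35, adjusted p = 0.85), and between ko and het it belonged to Kif4 (0.67 ± 0.35, adjusted p = 0.74) and Mad2l1 (-0.31 ± 0.19, adjusted p = 0.79). Of the 10 marker lists, 2 separated the ko from the wt libraries, both lower in ko with all markers detected: the 5 megakaryocyte markers (101 to 137 against 206 to 260.0 CPM) and the 8 macrophage markers (18.6 to 35.2 against 65.5 to 136). The neutrophil markers overlapped but were highest in replicate 4 of both, at 2355 CPM in ko and 2543 in wt. Without HSC ko replicate 4 the median log2 change of the members was -0.32. The part of these markers was not tested.

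In HPC nearly all members leaned upward in ko. The library means were 6.33, 6.08, 5.95 and 6.40 in ko and 6.09, 5.97, 6.04 and 5.77 in wt, with overlap, the median log2 change was 0.18 (0.02 over all genes), and 34 of 35 changes were positive. The smallest p belonged to Mki67, which held 51.1, 60.2, 42.4 and 33.1 CPM in ko and 29.3, 13.6, 43.03 and 15.5 in wt (0.87 ± 0.30, adjusted p = 0.30), and to Incenp, which held 25.3, 36.6, 25.4 and 28.8 in ko and 21.4, 16.2, 24.2 and 17.4 in wt (0.54 ± 0.20, adjusted p = 0.34). Het libraries showed the same 2 genes at the smallest p against these same wt libraries, Incenp at 0.54 ± 0.20, adjusted p = 0.96 and Mki67 at 0.81 ± 0.30, adjusted p = 0.96. Between ko and het, which both carry Cre, the smallest p belonged to Cenpa (0.40 ± 0.16, adjusted p = 0.70) and Ube2c (0.39 ± 0.16, adjusted p = 0.70). The summed granulocyte-monocyte markers, 7 of 7 detected, were higher in ko without overlap (3518 to 5121 against 2437 to 2955 CPM), and the 5 megakaryocyte markers were lower (22.2 to 37.6 against 55.1 to 81.03, with Gp5 at 0 in ko). The neutrophil markers overlapped but were highest in replicate 4 of both, at 2659 CPM in ko and 674 in wt. Without HPC ko replicate 4 the median log2 change of the members was 0.10. Whether these differences bear on the lean was not tested.

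In pGM the members leaned downward in ko, with a median of -0.14 (0.02 over all genes) and 6 of 35 positive. Library means were 6.29, 6.04, 6.07 and 6.15 in ko, 6.10, 5.85, 6.27 and 6.20 in het and 6.27, 6.10, 6.34 and 6.44 in wt, with overlap among all 3. Kif23 (-0.31 ± 0.12, adjusted p = 0.31) and Incenp (-0.38 ± 0.16, adjusted p = 0.40) had the smallest p. Racgap1 was lowest in het: it held 50.5, 33.3, 35.9 and 41.4 CPM in het, 99.6, 62.8, 87.6 and 54.8 in wt and 78.8, 58.5, 70.6 and 56.4 in ko, so no het library overlapped either other genotype. From wt to het 1 of 35 members was lower without overlap, beside 351 of 12939 genes tested. From het to ko 1 was higher without overlap, beside 290 of 12939. Both are near the share of all genes. The log2 change from wt to het was -0.91 ± 0.18, adjusted p = 0.16, and that from het to ko was 0.72 ± 0.18, adjusted p = 0.11. DESeq2 called Racgap1 in both (log2 -0.91, adjusted p = 0.00184 and log2 0.71, adjusted p = 0.0159), and edgeR called it from wt to het without pGM wt replicate 4 (log2 -1.04, adjusted p = 0.0467). The 2 tests share the het libraries. The share of all genes called by DESeq2, or by edgeR without that wt library, is not given. After Racgap1 the smallest p belonged to Bub1b from wt to het (-0.38 ± 0.13, adjusted p = 0.50) and to Aurka from het to ko (0.25 ± 0.14, adjusted p = 0.66). With Y-linked expression as a covariate Ccna2 was lower in ko than in wt (log2 -0.75, adjusted p = 0.0301, edgeR), again without the share of all genes called in that fit. Between ko and wt 4 of the 10 marker lists did not overlap. Lower in ko were the 4 mast cell markers (195 to 273 against 487 to 668 CPM), the 5 megakaryocyte markers (38.8 to 89.3 against 102 to 109.9) and the 8 macrophage markers (43.7 to 73.3 against 74.2 to 87.6), all detected. Higher were the 5 markers of T and NK cells (9.52 to 22.9 against 5.58 to 8.81, with Cd3e and Cd8a at 0 in wt). Their part in the downward lean was not tested.

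In GMP the downward lean in ko was larger. Library means were 6.42, 5.96, 6.03 and 6.41 in ko, 6.14, 6.27, 6.35 and 6.56 in het and 6.38, 6.65, 6.41 and 6.56 in wt, and ko replicates 2 and 3 lay below all wt libraries. The same replicate numbers were the low ones in ko HSC. The median log2 change from wt to ko was -0.27 (0.03 over all genes), 7 of 35 changes were positive, and 10 members had an unadjusted p under 0.05 without passing the adjustment. In GMP 7 members were lower in every ko library than in any wt library, where 3.65% of all genes were separated in that direction. The smallest p belonged to Ccnb1, with 80.9, 72.6, 63.6 and 73.8 CPM in ko, 94.7, 74.9, 92.4 and 88.4 in het and 91.9, 115, 116 and 102 in wt (-0.54 ± 0.14, adjusted p = 0.14). Aurka followed, with 124, 88.9, 91.6 and 107 CPM in ko, 96.2, 123, 124 and 152 in het and 152, 157, 162 and 144 in wt (-0.57 ± 0.16, adjusted p = 0.17). DESeq2 called these 2 genes (log2 -0.54, adjusted p = 0.0214 and log2 -0.57, adjusted p = 0.0458), and the share of all genes it called is not given. Without GMP het replicate 1 and GMP ko replicate 2, the 2 libraries with the uneven profile, edgeR called Ccnb1 (log2 -0.54, adjusted p = 0.0497) and Plk1 (log2 -0.67, adjusted p = 0.00992), a check added after seeing the data. These libraries were picked by their values of the members, Plk1 among them, so the check is not an independent test of the members. The share of all genes called in that fit is not given. Against het, which carries Cre, 0 members passed and the smallest p belonged to Bub1 (-0.38 ± 0.17, adjusted p = 1.00) and Ccnb1 (-0.27 ± 0.14, adjusted p = 1.00). From wt to het it belonged to Plk1 (-0.70 ± 0.28, adjusted p = 0.97) and Cdc20 (-0.35 ± 0.15, adjusted p = 0.97). The 7 granulocyte-monocyte markers summed to 99747 to 132450.0 CPM in ko and 107398 to 133859 in het, both below the 136125 to 168543 of wt. The 8 macrophage markers summed to 75.3 to 96.1 CPM in ko, 108 to 128 in het and 102 to 172 in wt, so that ko lay below both. All markers of both lists were detected, and their part in the lean was not tested.

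Whether the ko to wt difference itself varied between populations was tested with an interaction term in 1 fit of all 48 libraries. The members' median difference from HSC was 0.25 in HPC, -0.09 in pGM and -0.20 in GMP, and edgeR called 0 members in each (0.232%, 0.218% and 0.39% of all genes), with 2, 0 and 3 at an unadjusted p under 0.05 and 0 by DESeq2. The smallest p belonged to Incenp (0.87 ± 0.32, adjusted p = 0.58) and Ube2c (0.66 ± 0.29, adjusted p = 0.68) in HPC, to Kif4 (-0.60 ± 0.41, adjusted p = 1.00) and Ndc80 (0.39 ± 0.32, adjusted p = 1.00) in pGM, and to Bub3 (-0.40 ± 0.18, adjusted p = 0.47) and Aurka (-0.61 ± 0.29, adjusted p = 0.49) in GMP. Without HSC ko replicate 4 the 3 medians were 0.53, 0.18 and 0.01, and without HSC ko replicate 3 they were 0.09, -0.29 and -0.38. The upward lean in HPC and the downward lean in GMP were not shown to differ from HSC.

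**Figure D4:**
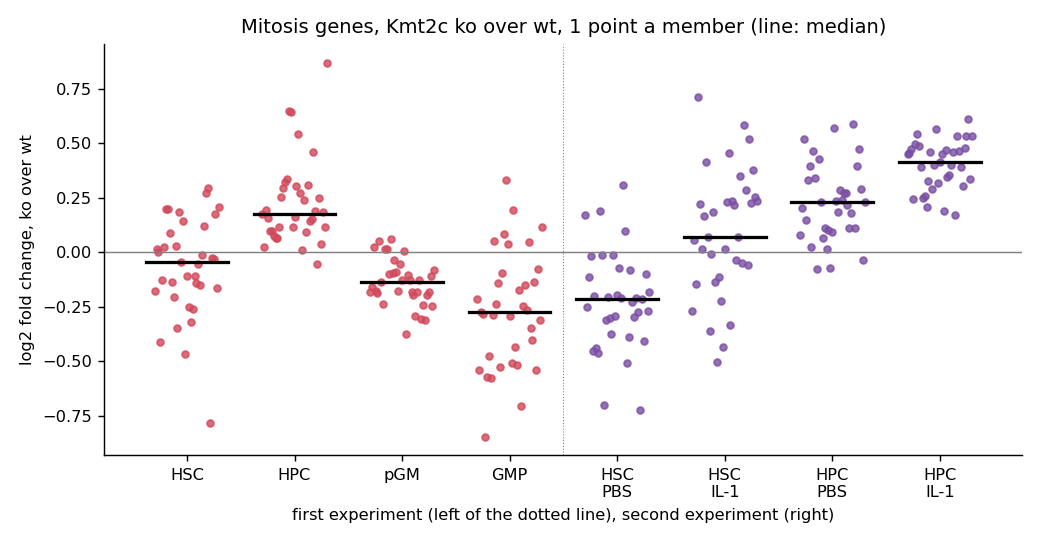
Log2 fold change of ko over wt (y axis) for each of the 35 mitosis genes in 8 comparisons (x axis), 1 point per member with the median as a black line; the first experiment is left of the dotted line and the second is right of it. No point passed an adjusted p of 0.05 by edgeR; the medians run from -0.27 in GMP to 0.41 in HPC with IL-1.

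In the second experiment ko and wt were compared again, with and without IL-1. In HSC with PBS the members' median change in ko was -0.22, with 4 of 35 positive and 0 called by edgeR or DESeq2 (0.798% of all genes by edgeR, 1 member at an unadjusted p under 0.05). The median was -0.52 without HSC ko PBS replicate 4 and 0.04 without HSC wt PBS replicate 3. The smallest p again belonged to Kif23, with 14.8, 18.1, 11.5 and 26.97 CPM in ko and 27.9, 31.2, 44.8 and 14.5 in wt (-0.72 ± 0.31, adjusted p = 0.49), followed by Ttk (-0.70 ± 0.36, adjusted p = 0.61). In HSC with IL-1 the median was 0.07, and 0.46 when HSC wt IL1 replicate 1, as labelled, was left out. There 0 members were called (0% of all genes, 0 members at an unadjusted p under 0.05, 0 by DESeq2), and Racgap1 (0.52 ± 0.28, adjusted p = 0.62) and Ccna2 (0.71 ± 0.41, adjusted p = 0.64) had the smallest p. With PBS 5 of the 10 marker lists separated ko from wt HSC. The granulocyte-monocyte list was higher in ko (408 to 639 against 313 to 391 CPM, with Ctsg at 0 in ko). Lower were the megakaryocyte (98.4 to 124 against 165 to 239), macrophage (21.3 to 38.8 against 83.04 to 102), neutrophil (6.12 to 9.21 against 11.6 to 17.4, with Mmp8 at 0 in both) and mast cell lists (0.353 to 2.41 against 4.16 to 10.2, with Mcpt8 and Fcer1a at 0 in ko and Ms4a2 in wt). With IL-1 0 of the 10 did so with all libraries. Without HSC wt IL1 replicate 1, as labelled, the macrophage list was lower in ko (18.8 to 27.1 CPM against 60.1 and 77.1). The library left out held 24.1. The mast cell, neutrophil and megakaryocyte lists were then also lower in ko without overlap. The T and NK cell list was higher, and the remaining lists overlapped. The part of these lists was not tested.

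In HPC of the second experiment ko stood above wt in most members under both treatments, without a call. With PBS the library means were 6.28, 6.13 and 6.005 in ko and 6.04, 5.95 and 5.68 in wt, the median change was 0.23 with 32 of 35 positive, and 10 members were higher in every ko library than in any wt library, against 6.81% of all genes. With IL-1 the median was 0.41 with 35 of 35 positive, and it was 0.74 without HPC ko IL1 replicate 1 (26 members at an unadjusted p under 0.05, 0 called) and 0.19 without HPC wt IL1 replicate 1. HPC ko IL1 replicate 1 was the lowest of its group for all 35 members, so leaving it out raises their change by construction. With all libraries edgeR called 0 members with PBS and with IL-1 (0.257% and 0.201% of all genes), with 0 and 0 at an unadjusted p under 0.05, and DESeq2 called 0. Aurkb had the smallest p with PBS, at 129, 106 and 100.1 CPM in ko and 91.2, 64.5 and 68.4 in wt (0.57 ± 0.27, adjusted p = 0.56), followed by Bub3 (0.34 ± 0.19, adjusted p = 0.63). Anln (0.61 ± 0.29, adjusted p = 0.98) and Cdk1 (0.45 ± 0.24, adjusted p = 1.00) had it with IL-1. Averaged over the 2 treatments, a contrast added after seeing the data, the median was 0.32, 35 of 35 changes were positive, 6 members had an unadjusted p under 0.05, and 0 were called by edgeR (1.15% of all genes) or DESeq2. Aurkb (0.51 ± 0.19, adjusted p = 0.29) and Racgap1 (0.44 ± 0.19, adjusted p = 0.40) had the smallest p. Replicate numbers were treated as pairs in HPC of this experiment because of correlations in these same counts, not because of a label. So paired, the mean of the members was higher in ko in all 6 pairs. The differences were 0.24, 0.18 and 0.32 log2 units with PBS and 0.12, 0.51 and 0.43 with IL-1. With the replicate number as a block edgeR also called 0 members. The 7 granulocyte-monocyte markers, all detected, were higher in ko with PBS without overlap (1530.3 to 2084 against 849.5 to 1414 CPM). So were the 5 markers of T and NK cells (27.3 to 40.4 against 11.9 to 18.1, with Cd8a at 0 in ko and Ncr1 in wt), and the 6 neutrophil markers were lower (5.56 to 10.03 against 15.1 to 83.5, with Mmp8 at 0 in wt). With IL-1 the 4 mast cell markers, all detected, were lower in ko (20.6 to 25.5 against 31.97 to 64.9 CPM). Their part in the lean was not tested.

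IL-1 was compared with PBS within each genotype, and in HSC most members stood higher with it, without a call in either genotype. In ko HSC the library means were 4.24, 4.00, 3.87 and 4.93 with PBS and 4.99, 4.88, 5.38 and 4.79 with IL-1. Replicates 1 to 3 with PBS lay below every IL-1 library, and replicate 4, with the uneven profile described above, lay among them. The median log2 change was 0.74 (-0.01 over all genes) with 33 of 35 positive, and 18 members had an unadjusted p under 0.05. edgeR called 0 members (0.212% of all genes), and DESeq2 called 3, Anln, Racgap1 and Bub1. The share of all genes that DESeq2 called is not given. In ko 11 members were higher in every IL-1 library than in any PBS library, against 2.56% of all genes.

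Anln had the smallest p in ko HSC, with 6.48, 4.91, 6.85 and 7.31 CPM with PBS and 14.04, 10.3, 17.7 and 16.7 with IL-1 (1.202 ± 0.32, adjusted p = 0.19, no overlap). Racgap1 held 37.98, 46.5, 42.4 and 19.1 CPM with PBS and 73.3, 58, 85.1 and 63.1 with IL-1 (0.94 ± 0.25, adjusted p = 0.20). Both act in cytokinesis, Anln at the contractile ring and Racgap1 in centralspindlin. Bub1 held 11.8, 4.98, 6.61 and 10.9 CPM with PBS and 17.9, 15.9, 30.5 and 15.99 with IL-1 (1.23 ± 0.34, adjusted p = 0.20). Cdk1 held 42.8, 32.5, 29.5 and 129.7 CPM with PBS, highest in replicate 4, and 57.7, 40.8, 66.6 and 60.6 with IL-1, so that the groups overlapped (-0.06 ± 0.39, adjusted p = 0.97). Without HSC ko PBS replicate 4 the median of the members was 1.05, and edgeR called 1, Cenpa (log2 1.25, adjusted p = 0.0259). That library was singled out by its levels of the members, so this is not an independent test of them. The share of all genes called in that fit is not given.

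In wt HSC the library means were 4.67, 4.50, 5.13 and 3.57 with PBS and 5.34, 4.65 and 4.58 with IL-1, the first of the latter being the library whose Kmt2c level was that of ko. The median change was 0.38 with 32 of 35 positive, and 0.07 without that library. edgeR called 0 members (0.2% of all genes), 3 had an unadjusted p under 0.05, and DESeq2 called 0. Cenpa had the smallest p, with 25.2, 27.8, 32.7 and 23.1 CPM with PBS and 40.2, 57.4 and 50.5 with IL-1, the highest PBS library below the lowest IL-1 library (0.89 ± 0.34, adjusted p = 0.45), and Ccnb2 the next (0.75 ± 0.33, adjusted p = 0.58). Of the 35 members 1 was higher without overlap, beside 757 of 16538 genes tested, which is not above the share of all genes. The difference between the responses of ko and wt had a median of 0.35, with 0 members called by edgeR (0% of all genes) or DESeq2 and 0 at an unadjusted p under 0.05 by edgeR, so that the change in ko was not shown to differ from that in wt. This median was 0.72 without HSC wt IL1 replicate 1, as labelled, with 5 members at an unadjusted p under 0.05 and 0 called. It was 0.74 without HSC ko PBS replicate 4 and -0.03 without HSC wt PBS replicate 3, so its sign turned without the latter. With all libraries the smallest p belonged to Bub1b (0.87 ± 0.42, adjusted p = 0.85) and Racgap1 (0.73 ± 0.37, adjusted p = 0.85).

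Averaged over wt and ko, a contrast added after seeing the data, IL-1 raised 1 member in HSC: Anln (0.96 ± 0.23, adjusted p = 0.0427, edgeR), against 0.847% of all genes raised. Of the 35 changes 34 were positive, with a median of 0.55, and 18 members had an unadjusted p under 0.05. Without HSC wt IL1 replicate 1, as labelled, the median was 0.39, 6 members had such a p and 0 were called. The Anln call depended on the set of libraries: it was lost in 11 of the 15 fits that left out 1 library, among them the fit that left out HSC wt IL1 replicate 1 as labelled (adjusted p = 0.118). Without HSC ko PBS replicate 4, 5 members were called: Anln, Cenpa, Ccnb2, Nuf2 and Ube2c. Most members stood high in that library, so leaving it out raises their change with IL-1 by construction. The share of all genes called in that fit is not given. DESeq2 called Anln, Bub1 and Cenpa, also without the share of all genes it called. Marker levels moved with the treatment: the summed level of the erythroid list was 87.2 to 139.5 CPM with PBS and 558 to 635 with IL-1 in wt, and 137 to 423 and 362 to 566 in ko, where the groups overlapped. The overlap came from HSC ko PBS replicate 4, at 423 CPM, while replicates 1 to 3 held 158, 140 and 137. In wt the 7 granulocyte-monocyte markers were also higher with IL-1 (539 to 693 against 313 to 391 CPM) and the 8 macrophage markers lower (24.1 to 77.1 against 83.04 to 102), and in ko the 5 megakaryocyte markers were higher (141 to 199 against 98.4 to 124), without overlap and with all of them detected. Their part in the result was not tested.

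In HPC the members moved little with IL-1. The median change was -0.11 in wt (7 of 35 positive) and 0.09 in ko (26 of 35 positive), with 0 members called by edgeR in each (0.947% and 0.433% of all genes), 0 and 0 at an unadjusted p under 0.05, and 0 by DESeq2. The smallest p belonged to Cenpf (-0.62 ± 0.33, adjusted p = 0.58) and Cdk1 (-0.34 ± 0.24, adjusted p = 0.72) in wt and to Bub1 (0.52 ± 0.33, adjusted p = 0.94) and Kif2c (0.45 ± 0.38, adjusted p = 0.99) in ko. The medians moved with 1 library in each genotype. Replicate 1 with IL-1 had a mean over the members of 5.20 in wt, against 5.90 and 6.17, and of 5.31 in ko, against 6.41 and 6.60. Without it the median change was 0.14 in wt, with the sign turned, and 0.39 in ko, again with 0 called. In both genotypes the summed erythroid markers were higher with IL-1 without overlap (60.5 to 90 CPM with PBS and 167 to 322 with IL-1 in wt, 41.7 to 90.99 and 123 to 172 in ko) and the 6 HSC markers, all detected, lower (262 to 409 and 144 to 218 in wt, 247 to 283 and 162 to 194 in ko).

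These 2 libraries were low in mitosis genes but not in replication genes. HPC wt IL1 replicate 1 was the lowest of its group for 33 of the 35 members and HPC ko IL1 replicate 1 for all 35. Top2a stood at 347, 514 and 606 CPM in the wt IL-1 libraries and 367, 674 and 809.7 in the ko ones, and Kif11 at 26.9, 67.02 and 77.2 and 29.9, 82.04 and 107. The mean log2 CPM of 29 replication genes was 7.11, 6.62 and 6.82 in the same wt libraries and 7.11, 6.92 and 7.16 in the ko ones, so that the lowest libraries for mitosis genes were the highest or second for replication genes. Bub3 differed less between these libraries, at 241, 229 and 250.1 CPM in wt and 247, 268 and 341 in ko. The fit with the replicate number as a block also called 0 members in each comparison of genotype or treatment in HPC of this experiment.

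**Figure D5:**
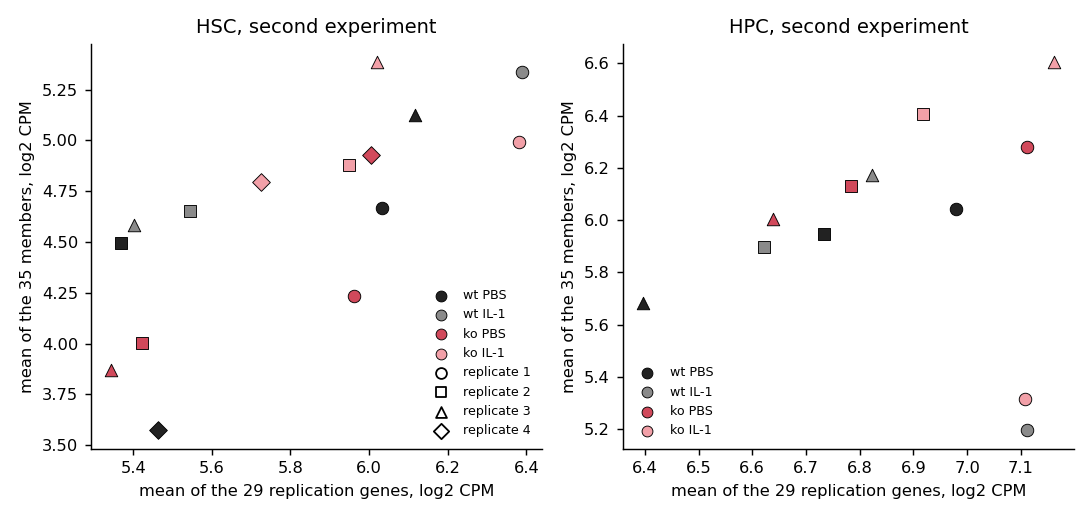
Mean log2 CPM of the 35 mitosis genes (y axis) against that of 29 replication genes (x axis) in each library of the second experiment, HSC on the left and HPC on the right; colour is the group and shape the replicate. The HPC libraries of replicate 1 with IL-1, at 5.20 and 5.31 on the y axis, lie below all other HPC libraries, of which the lowest is at 5.68, while their replication level is 7.11 in both.

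The responses of wt HPC and wt HSC to IL-1 differed by a median of -0.44, with 0 members called by edgeR (0.0228% of all genes), 0 at an unadjusted p under 0.05 and 0 by DESeq2. Without HSC wt IL1 replicate 1, as labelled, this median was -0.14, and without HPC wt IL1 replicate 1 it was -0.20, again with 0 called. In HPC the responses of ko and wt differed by a median of 0.18, also with 0 called by edgeR (0% of all genes), 0 at an unadjusted p under 0.05 and 0 by DESeq2. That median was -0.08 without HPC wt IL1 replicate 1 and 0.50 without HPC ko IL1 replicate 1. Cenpa (-0.89 ± 0.53, adjusted p = 0.87) and Anln (-0.71 ± 0.47, adjusted p = 0.87) had the smallest p for the first, and Mad2l1 (0.33 ± 0.30, adjusted p = 1.00) and Cdk1 (0.37 ± 0.34, adjusted p = 1.00) for the second. Of the 29 replication genes, 0 were called by edgeR in any comparison of genotype or IL-1 within a population.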

How the data were processed

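The authors deposited raw read counts per gene in 2 tables, 1 per experiment. Per the submitters' processing notes, STAR 3.0.4 and featureCounts 1.4.5 were used; neither genome build nor strandedness is given in the sources used here. Ccna2, Cdc20, Ube2c, Cdca8, Nusap1, Kif4, Kif20a and Prc1 share exon sequence with a gene on the other strand, and reads of the 2 cannot be told apart. Rows that name no mouse gene, 3 in the first experiment, were left out (9.57e-05% of reads). Symbols and lengths come from GENCODE M21 and promoters from RefSeq. In the second experiment the cell type entry of the HSC libraries reads HPCs, while their other labels read HSC, which was used.

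The test was edgeR's quasi-likelihood F test (version 4.0.16, R 4.3.3) after filterByExpr (minimum count 10, minimum total 15) and TMM scaling, with p values adjusted by Benjamini-Hochberg over all genes of a fit and called under 0.05. Each population of an experiment had its own fit, and populations were compared in fits of all libraries of an experiment, 8 fits in all for 31 comparisons. CPM are TMM-scaled within an experiment, log2 CPM use a prior count of 2, and the scripts were tested on simulated data. The named-gene rule gives all libraries for a panel of 18 members, called members up to 8 (else the 3 largest and 3 smallest), members not called up to 5, and the 2 smallest p where none is called. Members and lists were chosen with earlier results of these data known. Alternatives were RLE scaling, no filter, DESeq2 1.42.0, the replicate number as a block, other sample sets, a Y-linked covariate and each library left out. Residuals of libraries with the same number correlated above 0.1 in every pair of the 4 HPC comparisons of the second experiment (r across genes 0.21 to 0.80) and not in every pair elsewhere.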

Additional observations from a re-analysis of the deposited data

Results flagged for a closer look

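The 19 values examined were the mean over the 35 members and 18 single members in each of the 15 groups of 4 libraries. A library was singled out where its gap to the nearest other library, divided by the group's range, passed Dixon's 95% limit for 4 values. Of 285 such sets of values 12 did so, and chance singles out about 5% of sets. None of the 12 was the mean over the members.

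In the first experiment the lone libraries were mostly modest in size. Ndc80 was lowest in GMP wt replicate 1, at 31.7 CPM against 39.5 for the nearest other, and Cdk1 in HSC wt replicate 3, at 65.3 CPM against 78.1. Kif4 was highest in HPC ko replicate 2, at 21.9 CPM against 15.7, and in HPC wt replicate 3, at 15.5 CPM against 11.5. Mki67 was highest in pGM ko replicate 2, at 68.4 CPM against 38.7, and Aurka in pGM wt replicate 4, at 120.9 CPM against 97.2.

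In the second experiment they were larger. HSC ko PBS replicate 4 was highest for Cdk1, at 129.7 CPM against 42.8, and for Birc5, at 69.3 CPM against 19.0. Kif4 was highest in HSC ko PBS replicate 1, at 9.59 CPM against 5.51. Bub1 was highest in HSC ko IL1 replicate 3, at 30.5 CPM against 17.9. Cdk1 was highest in HSC wt PBS replicate 3, at 80.1 CPM against 45.5, and Kif11 lowest in HSC wt PBS replicate 4, at 7.16 CPM against 21.1.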

How the results depend on the processing

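The limits of these data are the small groups, the uneven Y-linked expression and neutrophil marker levels within groups, and libraries that differ in the ratio of one member to another. Of the planned and added alternatives, RLE scaling and 1 fit of all libraries of an experiment changed no count of called members by more than 1.5 times.

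With only the 2 groups in the fit, 10 members were called from wt HPC to pGM in place of 0, and 16 from wt pGM to GMP in place of 6. The share of all genes called in those smaller fits is not given. Without the low-count filter 18 were called from HSC to HPC with PBS in place of 31, and 3 for IL-1 in ko HSC and 3 for IL-1 averaged over genotypes, in place of 0 and 1. DESeq2 called 1 from pGM het to ko, 1 from pGM wt to het, 2 from GMP wt to ko and 3 for each of those 2 IL-1 comparisons. The Y-linked covariate gave 2 called in HSC ko against wt and 1 in pGM ko against wt, in place of 0. The replicate block gave 1 from pGM het to ko and 1 from pGM wt to het, changed no other count by more than 1.5 times, and called Cenpa in place of Anln for IL-1 averaged. Leaving out GMP het 1 and GMP ko 2 gave 2 in GMP ko against wt. The share of all genes called is not given for these alternatives either. The cause was not tested.

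Leaving out single libraries gave 32 to 34 called from wt HSC to HPC, 0 to 1 from HPC to pGM, 3 to 6 from pGM to GMP, 12 to 33 from HSC to HPC with PBS, 0 to 1 from pGM wt to het, 0 to 1 for IL-1 in ko HSC and 0 to 5 for IL-1 averaged. Bub3 from HSC to HPC with PBS changed sign, to -0.001203 with only the 2 groups and within -0.191 to 0.138 with single libraries left out, below 0 without HPC wt PBS replicate 1 (-0.191) and HSC wt PBS replicates 2 (-0.04956) and 4 (-0.07139). The lowest count of a member was 39.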

Other observations

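The 7 members whose promoter window held no TTTGAA did not stand below the others: their median log2 change from wt HSC to wt HPC was 1.55, against 1.45 for the 23 that held it. The range was 0.99 to 1.68 without the letters and 0.56 to 1.72 with them. For CCAAT the medians were 1.51 for the 23 members with the letters and 1.45 for the 7 without.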
